A study of Mus musculus with 48 samples.

Results

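The genes described here are 33 genes of glycolysis and of the response to low oxygen, found by their symbols among the 24054 gene symbols of the deposited table. They comprise 3 transporters of glucose and lactate, 9 genes of the steps from hexokinase to triose phosphate isomerase, 2 enzymes that set the level of fructose 2,6-bisphosphate, and 7 genes of the steps from glyceraldehyde 3-phosphate to lactate. They also comprise Hif1a with its prolyl hydroxylases Egln1 and Egln3, and 9 other hypoxia-induced genes. The genes are listed by name, with no threshold on a measured value.

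Glycolysis splits glucose into pyruvate, spending ATP in its first steps and returning more of it in the later ones, and lactate dehydrogenase then turns pyruvate into lactate, which leaves the cell through monocarboxylate transporters. When oxygen falls, the prolyl hydroxylases stop marking HIF-1α for destruction, and the stable protein joins its partner ARNT on promoters that hold the core motifs ACGTG or GCGTG. Most glycolytic genes are among its targets, and so is Egln3, which closes a feedback loop. Tumour cells often keep this programme active in air, and neutrophils are known for their reliance on glycolysis.

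RNA-seq counts came from 48 mouse libraries in 16 groups of 3. Of these, 8 groups were cultured breast tumour lines. The labels give BALB/C as the strain of 2208L, T11, 4T1 and 67NR, and C57BL/6 as that of AT3, E0771, PyMT-N and PyMT-M. T11, 2208L and 4T1 were at passage 15 to 20, 67NR at 19, PyMT-M at 7, PyMT-N and E0771 at 14 and AT3 at 15. The E0771 line grew in an RPMI medium with HEPES and the others in DMEM, so line and medium cannot be told apart for E0771. The other 8 groups were neutrophils (live CD45+ CD11b+ Ly6G+ cells with medium to low Ly6C) and macrophages (live CD45+ CD11b+ Ly6G- Ly6C- F4/80+ cells) sorted from tumours of 4 of these lines: 2208L, T11, AT3 and E0771. The first E0771 neutrophil library and the first E0771 macrophage library carry the strain label BALB/C, against C57BL/6 for the other E0771 and all AT3 libraries. The column names end in Epi for 2208L, 4T1, AT3 and PyMT-N and in Mes for the other lines. Each column name of a sorted library also carries a number that recurs between a macrophage and a neutrophil library of the same tumour. No label says what it stands for, or that the 3 libraries of a group came from separate cultures or mice, so p-values measure the spread between these libraries, which may be technical. In bulk samples, fewer cells of a type and less RNA per cell cannot be told apart.

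Line libraries held 1893268 to 5749088 counts outside Rn45s, the ribosomal RNA precursor. Neutrophil libraries held 470712 to 1185233 and macrophage libraries 683150 to 1755895. The share of Rn45s was 3.88% to 14.9% for lines, 26.8% to 70.3% for neutrophils and 55.0% to 76.2% for macrophages. Levels below are CPM, that is counts scaled to the library's total outside Rn45s with TMM factors, as the mean ± SD of 3 libraries unless single libraries are given. Log2 differences carry their SE and the adjusted p of the edgeR quasi-likelihood test with Benjamini-Hochberg adjustment over all genes tested, and a gene is called at an adjusted p below 0.05. The 1442 receptor genes of smell and pheromone sensing, which few tissues use, stood for background. They summed to 942 to 2129 CPM in the means of the lines, 1680 to 2985 in those of the macrophages and 5037 to 9526 in those of the neutrophils. Near background means a mean level, per exon base, of less than 10 times the level of these receptors. This held for Aldoc, Eno1, Eno2, Car9 and Ankrd37 in lines, for Eno1 and P4ha2 in macrophages, and for 12 of the 33 genes in neutrophils: Slc16a1, Hk1, Pfkm, Aldoc, Eno1, Eno2, Egln1, Pdk1, Car9, Ankrd37, P4ha2 and Adm. Since background differed between groups, each comparison of sorted cells was fitted with factors from all tested genes and again with factors from the genes above background. Below, these are the first and the second factors.

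Most promoters of these genes held a core motif of HIF, ACGTG or GCGTG. The 250 bases before the RefSeq start site (GRCm38.p6, the assembly known as mm10) were searched on both strands for ACGTG and for GCGTG. With the first promoter listed for each gene, 18 of the 32 genes with an entry (56.2%) held ACGTG, against 4477 of all 27025 genes (16.6%). Either motif stood in 26 of the 32 (81.2%) and in 10431 genes overall (38.6%). Hk1, Gpi1, Aldoa, Tpi1, Eno2 and Pkm held neither in that first promoter. With any listed promoter, 20 (62.5%) held ACGTG and 29 (90.6%) either motif, against 18.5% and 41.5% of all genes. Gpi1, Tpi1 and Eno2 still held neither. CACGTG, a palindrome that is also an E-box read by MYC and other factors, counts once as ACGTG. A match is a description of letters, not a site. The genes were listed for their known roles in glycolysis and low oxygen, so these shares do not test those roles. The promoters printed below all hold ACGTG and so do not stand for the whole list. Printed here are the promoters of 6 genes that differed in the comparisons below: Pgk1 at chrX:106186850-106187099 on the plus strand, Hk2 at chr6:82774455-82774704 on the minus strand, Egln3 at chr12:54203875-54204124 on the minus strand, P4ha1 at chr10:59323046-59323295 on the plus strand, Ldha at chr7:46845554-46845803 on the plus strand and Slc16a1 at chr3:104638414-104638663 on the plus strand. Capitals mark ACGTG or GCGTG on either strand, and each window runs 5′ to 3′ along its gene with no annotated exon in it.
Pgk1 promoter: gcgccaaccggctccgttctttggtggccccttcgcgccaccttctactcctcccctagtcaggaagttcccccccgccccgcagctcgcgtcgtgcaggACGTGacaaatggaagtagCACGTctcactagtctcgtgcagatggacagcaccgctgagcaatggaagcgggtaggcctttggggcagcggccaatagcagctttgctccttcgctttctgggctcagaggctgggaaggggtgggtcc
Hk2 promoter: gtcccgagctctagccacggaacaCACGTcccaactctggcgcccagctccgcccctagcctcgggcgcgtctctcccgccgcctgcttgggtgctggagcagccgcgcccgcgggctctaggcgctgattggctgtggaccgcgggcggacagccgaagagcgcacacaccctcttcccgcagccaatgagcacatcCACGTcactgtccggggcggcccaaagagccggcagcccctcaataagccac
Egln3 promoter: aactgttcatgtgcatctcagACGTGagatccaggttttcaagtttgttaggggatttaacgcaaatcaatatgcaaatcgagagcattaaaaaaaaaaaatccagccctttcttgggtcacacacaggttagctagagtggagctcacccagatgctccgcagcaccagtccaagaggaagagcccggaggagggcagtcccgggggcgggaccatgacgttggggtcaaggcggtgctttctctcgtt
P4ha1 promoter: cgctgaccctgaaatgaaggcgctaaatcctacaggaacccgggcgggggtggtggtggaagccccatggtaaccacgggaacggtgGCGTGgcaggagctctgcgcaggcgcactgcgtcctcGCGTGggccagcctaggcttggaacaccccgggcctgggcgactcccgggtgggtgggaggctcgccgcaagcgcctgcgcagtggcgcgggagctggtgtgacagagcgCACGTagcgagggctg
Ldha promoter: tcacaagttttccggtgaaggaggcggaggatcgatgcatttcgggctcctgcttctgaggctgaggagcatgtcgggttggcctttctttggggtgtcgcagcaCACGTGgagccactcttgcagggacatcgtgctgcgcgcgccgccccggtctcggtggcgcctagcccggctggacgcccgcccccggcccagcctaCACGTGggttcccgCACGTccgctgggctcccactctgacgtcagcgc
Slc16a1 promoter: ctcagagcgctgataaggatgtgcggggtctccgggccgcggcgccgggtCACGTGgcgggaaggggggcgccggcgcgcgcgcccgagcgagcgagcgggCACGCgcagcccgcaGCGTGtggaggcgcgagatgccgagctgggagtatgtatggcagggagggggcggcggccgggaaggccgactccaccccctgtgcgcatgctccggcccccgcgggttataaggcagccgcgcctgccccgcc
Pgk1 and Hk2 each held 2 copies of ACGTG, Egln3 held 1, and P4ha1 held 1 beside 2 of GCGTG. Ldha held 3, of which 2 lay in CACGTG, and Slc16a1 held 1 within CACGTG beside 2 of GCGTG.

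Eno1, which encodes α-enolase, could not be read: it had 0 to 3 counts in every library and was not tested, so that 32 of the 33 genes entered each fit. The reference holds 3 near-identical copies of Eno1 and 77 of Gapdh (at least 95% identity over 300 or more bases), so values of Gapdh are uncertain. Bnip3 had 5 such copies, Pgk1 4, Ldha 3, and Gpi1, Ndrg1, Pgam1, Pkm and Tpi1 1 each. The exons of Aldoa, Ankrd37, Gapdh, Hk1, Pfkm, Pfkp and Tpi1 overlap other genes, and no source used here says whether counting used strand.

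In the cultured lines every tested gene of the 32 differed between at least some lines, against 89.1% of all genes tested. The summed CPM of all 33 genes left a gap between 3 low and 4 high lines: it was 6128 ± 95.2 in 67NR, 6592 ± 276 in 4T1 and 6627 ± 108 in 2208L at the low end, and 11349 ± 548 in T11, 11646 ± 308 in PyMT-N, 11721 ± 1097 in E0771 and 11931 ± 170 in PyMT-M at the high end, with AT3 between at 8638 ± 1014. The sum weighs the abundant genes most. It includes Gapdh, whose values are uncertain, at 236 to 664 CPM in BALB/C and 776 to 1943 in C57BL/6 line libraries. Per kilobase of exon, Ldha and Pkm stood first and second among the genes, at 677 and 376 CPM per kb averaged over the lines. PyMT-N was the highest line for 9 of the 32 tested genes and E0771 for 7, while 67NR was the lowest for 12 and 2208L for 8. Ranks of the lines were not counted over all genes.

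**Figure D1:**
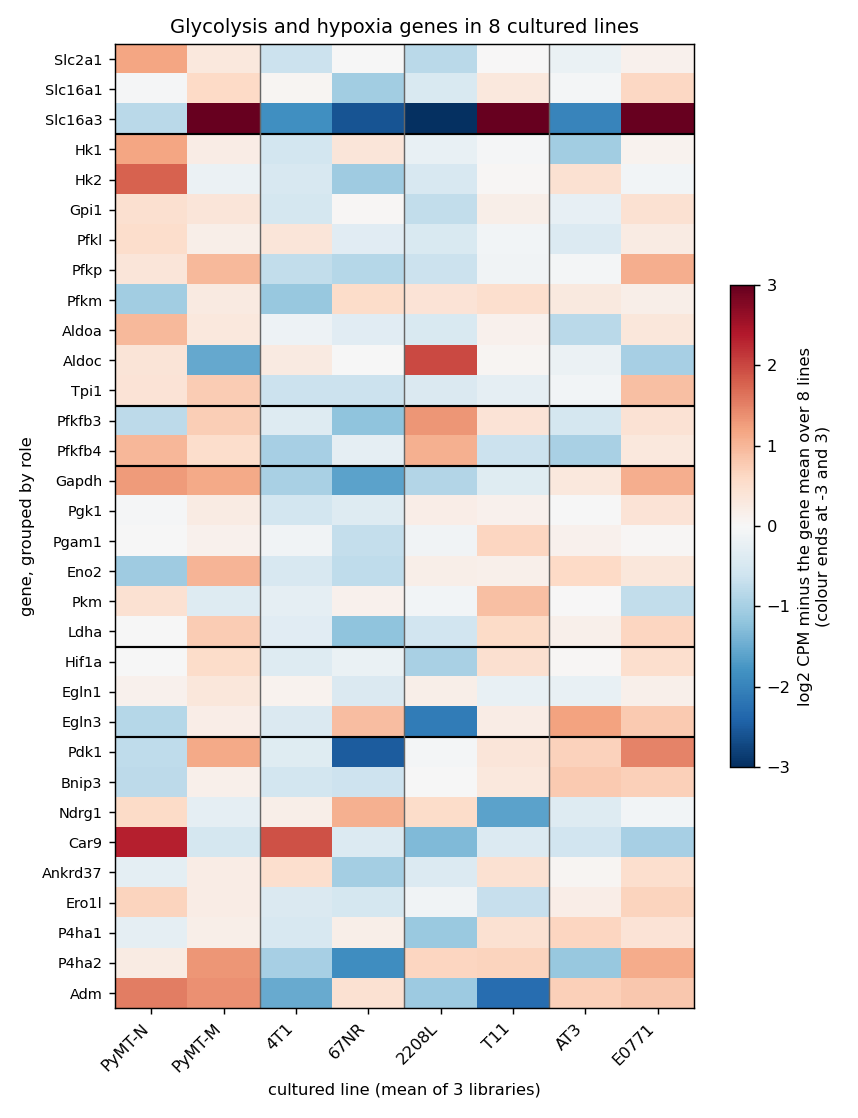
Mean level of 32 genes in each of the 8 cultured lines, as log2 CPM minus the mean of that gene over the lines; rows are genes grouped by role (black lines) and columns are lines, each the mean of 3 libraries. Slc16a3 is red in T11, E0771 and PyMT-M and blue in the other 5 lines, and the genes of a role do not share a single order of lines.

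The transporters gave the widest range. Slc16a3 encodes MCT4, the lactate exporter of glycolytic cells. Its CPM were 211, 230 and 194 in the T11 libraries, 195, 255 and 213 in E0771, and 208, 200 and 165 in PyMT-M. They were 2.64, 2.04 and 1.41 in 2208L, 3.72, 3.32 and 2.25 in 67NR, 6.35, 5.16 and 4.06 in 4T1, 5.16, 4.66 and 4.45 in AT3, and 11.4, 10.7 and 10.1 in PyMT-N. The lines formed a high group of 3 and a low group of 5 with no overlap, and in the 4 lowest lines the level per base was only 1.94 to 2.77 times that of the receptor genes. In the same-strain pairs Slc16a3 was lower in 2208L than in T11 by 101-fold (log2 difference −6.66 ± 0.18, edgeR adjusted p = 1.64e-51), in AT3 than in E0771 by 46.4-fold (−5.54 ± 0.15, 3.32e-52) and in PyMT-N than in PyMT-M by 17.7-fold (−4.14 ± 0.14, 1.71e-45). In 4T1 against 67NR the difference was 0.69 ± 0.32 (edgeR adjusted p = 0.0658). Slc16a1, which encodes the ubiquitous MCT1, ran only from 177 CPM in 67NR to 564 in E0771, a 3.19-fold range. Over the 8 line means the levels of Slc16a1 and Ldha had r = 0.96 on the log scale and those of Slc16a1 and Slc16a3 r = 0.83, given as a description of 8 points that share culture and library preparation.

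Slc2a1 encodes GLUT1, the basal glucose transporter. Its level was 187 CPM in PyMT-N, 103 in PyMT-M, 90.1 in E0771, 81.9 in T11, 80.5 in 67NR, 71.5 in AT3, 52.7 in 4T1 and 46.6 in 2208L. PyMT-N stood above every other line, with libraries at 170, 192 and 200 and the next highest library at 111. The middle of the order was flat: of the 7 neighbouring pairs only PyMT-N against PyMT-M and AT3 against 4T1 were called.

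Among the genes of the ATP-spending steps, Hk2 marked PyMT-N. Hk2 encodes the inducible hexokinase that binds mitochondria, and Hk1 the form found in most tissues. Hk2 had 281, 313 and 288 CPM in the PyMT-N libraries and 81.6, 83.6 and 61.9 in those of PyMT-M (1.96 ± 0.11, edgeR adjusted p = 3.14e-29), and all other lines lay at or below 130. Hk1 was also highest in PyMT-N, at 234 CPM. Aldoa, the main aldolase, followed with 1154, 1172 and 1192 CPM in PyMT-N against 741 ± 46.7 (SD, n = 3) in PyMT-M (0.66 ± 0.09, 1.64e-10). AT3 was lower than E0771 for both, with Aldoa at 322, 325 and 379 against 694, 829 and 757 CPM (−1.15 ± 0.09, 8.77e-21) and Hk1 at 42.9, 51.7 and 55.6 against 102, 123 and 108 (−1.15 ± 0.11, 5.60e-16). The phosphofructokinase genes differed in pattern. Pfkm, the muscle form, was low in 4T1 and PyMT-N, with 21.6, 14.8 and 15.6 CPM in 4T1 against 57.6, 55.1 and 53.7 in 67NR (−1.7 ± 0.14, 3.27e-18). Pfkp, the platelet form, ran from 43.8 CPM in 67NR to 168 in E0771, and Pfkl, the liver form, from 115 in 2208L to 226 in PyMT-N. Aldoc, the brain aldolase, was near background in most lines but reached 16.6, 17.4 and 12.4 CPM in 2208L against 4.21, 3.99 and 4.07 in T11 (1.91 ± 0.29, 2.74e-08).

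The enzymes of fructose 2,6-bisphosphate, the activator of phosphofructokinase, both had their highest mean in 2208L. Pfkfb3 had 65.9 CPM there and 11.5 in 67NR. Pfkfb4 had 39.9, 39.5 and 46.4 CPM in 2208L against 13.3, 11.6 and 13.2 in T11 (1.73 ± 0.18, edgeR adjusted p = 2.29e-14). Both fell the other way in the AT3 pair, with Pfkfb4 at 13.1, 7.29 and 10.1 in AT3 against 27.6, 22.8 and 23.9 in E0771 (−1.32 ± 0.17, 3.18e-10). PyMT-N had 42, 38.8 and 38.2 CPM of Pfkfb4, which overlapped 2208L and was not called apart from it.

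In the steps from triose phosphate to lactate, Ldha, the lactate dehydrogenase subunit of glycolytic tissue, separated the lines into bands. Its mean was 3454 CPM in PyMT-M, 3225 in E0771 and 3048 in T11, then 2287 in AT3, 2020 in PyMT-N, 1622 in 4T1, 1369 in 2208L and 893 in 67NR. The 3 lines with high Slc16a3 were thus the 3 with the highest Ldha. Pkm, pyruvate kinase, kept another order, with 3243, 3537 and 3170 CPM in T11 and the lowest libraries, 981, 1185 and 1057, in E0771. Pgk1, phosphoglycerate kinase, varied least of the 6 tested genes of these steps, from 324 CPM in 4T1 to 633 in E0771 (1.95-fold). Eno2, the neuronal enolase, was near background, at 13.4, 8.99 and 12.8 CPM in PyMT-M and 2.86, 2.77 and 2.73 in PyMT-N (−2.06 ± 0.31, edgeR adjusted p = 1.06e-08).

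Hif1a transcript was highest in PyMT-M (425 ± 32.5 CPM), E0771 (412) and T11 (408), and lowest in 2208L (149 ± 8.58), a 2.86-fold range. Its libraries in 2208L, 139, 151 and 156, lay below those of every other line. Egln3 spanned more than the other 2 genes of the oxygen-sensing loop. It had 61.0, 66.1 and 76.3 CPM in AT3, 59.1, 50.9 and 57.2 in 67NR, 39.6, 30.2 and 33 in T11, and 6.49, 8.17 and 5.91 in 2208L, so that the highest line exceeded the lowest 9.89-fold. In 2208L it was lower than in T11 by 2.34 ± 0.19 log2 (edgeR adjusted p = 3.35e-19). Egln1, the main oxygen sensor, ranged only 1.71-fold, from 57.2 CPM in 67NR to 98.1 in PyMT-M.

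Of the other hypoxia-induced genes, Pdk1, which encodes a kinase that closes pyruvate dehydrogenase, ordered the lines most sharply of the 32 genes: all 28 pairs of lines were called, against 9 to 26 pairs for the others. Over all genes the share called ran from 6.63% to 66.4% by pair. Its libraries had 140, 157 and 156 CPM in E0771, 125, 118 and 114 in PyMT-M, 85.7, 83.5 and 89.9 in AT3 and 8.54, 11.1 and 8.99 in 67NR. The range was 15.9-fold, and 4T1 with 47, 43 and 36.2 stood above its partner 67NR by 2.12 ± 0.16 log2 (edgeR adjusted p = 9.60e-22). Car9, the cell-surface carbonic anhydrase often used as a hypoxia marker, stood well above the receptor genes in 2 lines. It had 21.4, 17.7 and 18.3 CPM in PyMT-N and 14.8, 15.1 and 13.4 in 4T1, and at most 4.76 in any other library. The differences were 2.83 ± 0.32 for PyMT-N against PyMT-M (1.52e-12) and 2.33 ± 0.31 for 4T1 against 67NR (3.34e-10). Bnip3, a mitophagy receptor, did not follow Car9: it was lowest in PyMT-N at 17.2, 12.1 and 14.2 CPM and highest in AT3 at 42.5, 43.5 and 43.2. Neither end was called apart from its neighbour, 67NR at 17.3, 14.2 and 17.7 CPM and E0771 at 41, 41 and 41.4.

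Ndrg1, a stress-induced gene, had 103, 112 and 107 CPM in 2208L against 25.6, 23.3 and 23.9 in T11 (2.14 ± 0.13, edgeR adjusted p = 3.39e-27), a direction opposite to that of Egln3 in the same pair. P4ha2, a collagen prolyl hydroxylase, had 17.6, 12.7 and 9.63 CPM in AT3 against 61.2, 70 and 58.6 in E0771 (−2.25 ± 0.15, 7.41e-25), while its paralog P4ha1 had 184 in AT3 and 157 in E0771 (0.22 ± 0.09, 0.0371). Adm, the vasodilator peptide adrenomedullin, had 3.81, 4.13 and 0.625 CPM in 4T1 against 8.54, 12 and 12.7 in 67NR (−2.0 ± 0.32, 6.38e-08). Ankrd37, a small HIF target near background, had 5.92, 5.16 and 4.06 in 4T1 against 1.75, 1.77 and 1.75 in 67NR (1.48 ± 0.38, 0.000624). Ero1l, the oxidase that forms disulfides in the endoplasmic reticulum, was highest in E0771 and PyMT-N, at 162 and 160 CPM.

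**Figure D2:**
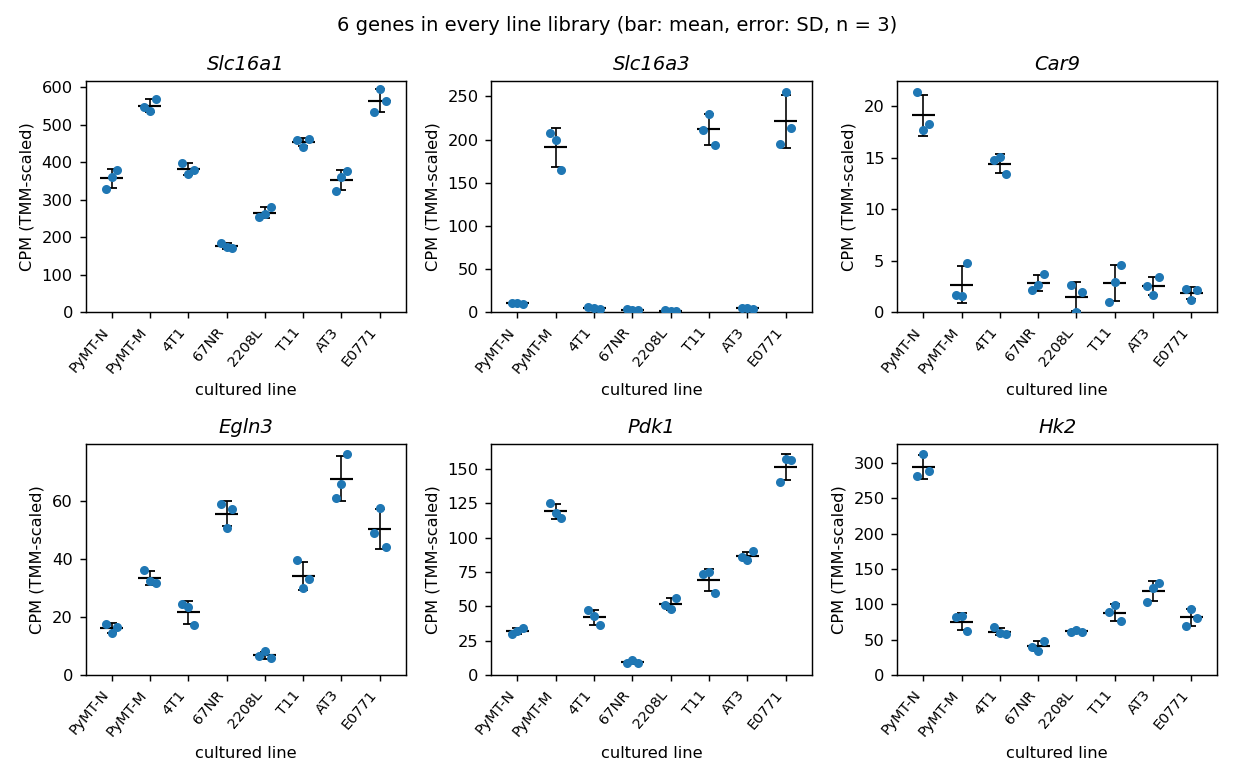
CPM of Slc16a1, Slc16a3, Car9, Egln3, Pdk1 and Hk2 in every line library; points are libraries, bars the mean of 3 and error bars the SD, on linear axes from 0. Slc16a3 is either at least 165 or at most 11.4 CPM, Car9 is above 5 CPM only in PyMT-N and 4T1, and Hk2 is above 130 CPM only in PyMT-N.

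Counted over the 4 same-strain pairs, the genes moved in each direction. In PyMT-N against PyMT-M 11 were higher and 15 lower of 32, where 23.7% of all genes tested were higher and 21.3% lower. The counts were 12 and 10 in 4T1 against 67NR (all genes 21.5% and 25.9%), 7 and 16 in 2208L against T11 (22.7% and 19%), and 4 and 20 in AT3 against E0771 (18.9% and 27%). With the second factors they were 11 and 17 (22.4% and 24.6%), 17 and 10 (31.3% and 19.9%), 7 and 20 (20.7% and 23.1%), and 8 and 17 (32.4% and 18.2%). The median log2 difference of the genes was −0.25, 0.15, −0.47 and −0.45, beside −0.08, 0.06, −0.03 and 0.04 for all genes. No gene was called the same way in all 4 pairs, and few were over all genes tested, with 1.22% higher and 1.21% lower. In different pairs 20 (62.5%) were called in both directions, against 32.3% of all genes tested. Slc16a3, Gpi1, Pfkp and Hif1a were lower in 3 or more pairs and higher in none (12.5%, against 5.85% of all genes). With the second factors Slc16a3 (0.89, edgeR adjusted p = 0.0134) and Pfkp (0.32, 0.00591) were higher in 4T1 than in 67NR, which left 2 such genes, Gpi1 and Hif1a, while 26 were called in both directions. Aldoc, near background, was then higher in 3 pairs and lower in none. Shares of all genes for these patterns were not counted with the second factors. The pairs put a line whose column ends in Epi against a Mes line each time, and strain is the same within a pair, but the epithelial marker sum follows the column ending only in part: it was 71.6 to 75.1 CPM in AT3 and 167 to 174 in its partner E0771, against 2376 to 5889 in 4T1, 2208L and PyMT-N.

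E0771 and PyMT-M, grown in different media, were the pair of lines with the smallest share of all genes called, 6.63%. Of these genes 5 of 32 were called between them, a larger share than over all genes. By log2 difference, Egln3 (0.59), Bnip3 (0.57), Ero1l (0.45) and Pdk1 (0.35) were higher in E0771 and Pkm (−0.33) lower. Over the 8 line means the 496 pairs of genes had a median r of 0.27, the genes of the later steps 0.49, those of the early steps 0.41 and the hypoxia-induced genes 0.11.

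In neutrophils from 2208L tumours the transcripts of glycolysis stood far above those in T11 tumours. Aldoa had 841, 1087 and 1146 CPM in the 2208L libraries and 179, 52.8 and 93.9 in the T11 libraries, with 204, 741 and 431 in AT3 and 136, 187 and 158 in E0771. Tpi1, triose phosphate isomerase, had 638, 708 and 572 against 98.9, 28 and 69.2. Ldha had 931, 996 and 1051 against 216, 52.8 and 135. No 2208L library overlapped a T11 library for these genes. The largest differences were those of Tpi1 (3.28 ± 0.47, edgeR adjusted p = 4.33e-06), Aldoa (3.23 ± 0.46, 4.88e-06), Ndrg1 (3.09 ± 0.38, 3.82e-07), Egln3 (2.9 ± 0.48, 3.54e-05) and Ldha (2.88 ± 0.48, 4.08e-05).

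Of the 32 genes 25 were called higher in 2208L and 1, Pfkm, lower, against 19.5% and 15.1% of all genes tested, and their median log2 difference was 1.87 against −0.21 for all genes. Among the genes above background, however, most moved with them: 1480 of 1911 were called higher and 28 lower, with a median of 1.41. With factors taken from those genes, the median of all genes above background was 0.02, and that of the 21 members among them 0.81. Then 14 of the 32 were higher and 6 lower, against 2.43% and 69.4% of all genes tested. The 14 were higher by both sets of factors: Slc2a1, Hk2, Gpi1, Aldoa, Aldoc, Tpi1, Gapdh, Pgk1, Pkm, Ldha, Egln3, Ndrg1, Ero1l and P4ha1. The differences then were 1.94 ± 0.28 for Tpi1 (edgeR adjusted p = 5.02e-05), 1.91 ± 0.25 for Aldoa (2.45e-05), 1.72 ± 0.22 for Ndrg1 (2.28e-05), 1.57 ± 0.27 for Ldha (0.000139) and 1.54 ± 0.34 for Egln3 (0.000728).

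**Figure D3:**
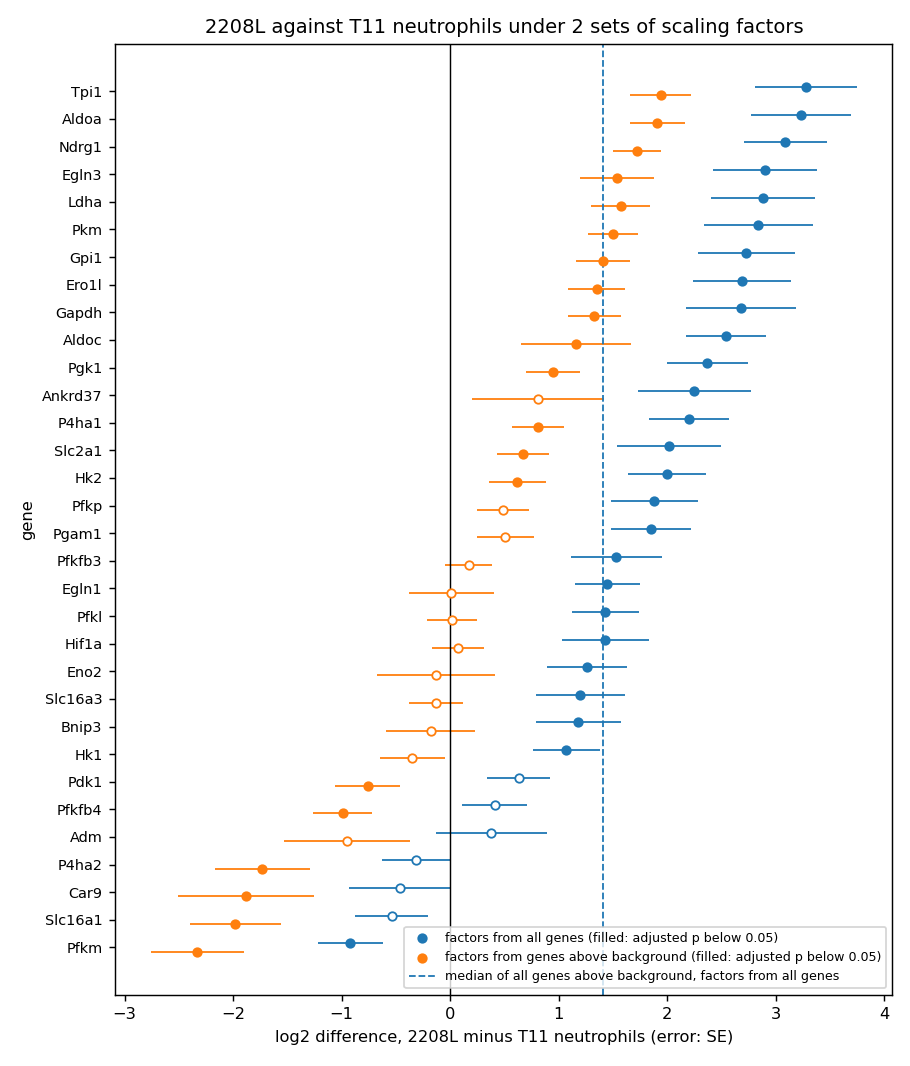
Log2 difference of 32 genes between 2208L and T11 neutrophils (3 libraries each), with factors from all tested genes (blue) and from the genes above background (orange); horizontal bars are SE, filled points have an adjusted p below 0.05, and the dashed line is the median of all genes above background with the first factors, 1.41. Tpi1, Aldoa, Ndrg1, Egln3 and Ldha lie to the right under both, whereas Hk1, Pfkl, Hif1a, Egln1 and Slc16a3 come to lie within 0.35 of 0 under the second.

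The genes of the transporters and of oxygen sensing split under the second factors. Slc2a1 had 1103, 1232 and 1147 CPM in 2208L and 413, 183 and 259 in T11 neutrophils (2.02 ± 0.48, edgeR adjusted p = 0.00193; 0.67, 0.0147 with the second factors). Slc16a3 had 344 and 150 CPM (1.2 ± 0.41, 0.0225), a difference of −0.13 (0.63) with the second factors. Hk2 had 230, 270 and 271 CPM against 70.1, 45 and 77.4 (2.0 ± 0.36, 9.68e-05; 0.62, 0.0349). Pgk1 had 234, 438 and 301 CPM against 83.8, 57.5 and 46.1 (2.37 ± 0.37, 1.52e-05; 0.95, 0.00271). Hif1a had 380, 458 and 434 against 246, 126 and 97.2, which gave 1.43 ± 0.40 (0.0064) with the first and 0.07 (0.802) with the second factors. Egln3, in contrast, kept its call, with 399, 441 and 434 CPM against 87.9, 43.5 and 37.9. Bnip3 had 53.9, 77.6 and 94.8 against 45.3, 28 and 24.7, and its difference of 1.18 (0.019) became −0.18 (0.698). Car9 lay near background in every neutrophil group, at 4.19 to 27.1 CPM, and was not called with the first factors (−0.46, 0.435) but was with the second (−1.88, 0.0113). Pfkm, Slc16a1, Pdk1, P4ha2 and Pfkfb4 were likewise lower with the second factors, and of these all but Pfkfb4 were near background.

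Ndrg1 stood apart in 2208L neutrophils, with 796, 948 and 809 CPM against 202, 213 and 188 in E0771, 120, 62.1 and 117 in T11, and 99, 164 and 90.7 in AT3. With the first factors 24 of the 32 tested genes were highest in 2208L neutrophils and 21 lowest in T11. With those factors 1480 of 1911 genes above background were also called higher in 2208L than in T11. Ranks over all genes were not counted. Other measures moved with the pair. Sums of 8 macrophage markers were 4730 to 7466 CPM in 2208L neutrophils and 399 to 839 in T11, and those of 8 neutrophil markers 7590 to 12185 and 1665 to 5223. Epithelial markers summed to 556 to 572 CPM in 2208L neutrophils and to at most 237 in sorted libraries of the other tumours. Receptor genes took 5037 ± 870 CPM in 2208L and 9526 ± 1200 in T11, and Rn45s took 26.8% to 42.9% of the counts in T11. The part of these in the result was not tested.

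Between AT3 and E0771 neutrophils the spread within AT3 was wide. The summed CPM of the 33 genes ran from 4387 to 16749 over the 3 AT3 libraries and from 4314 to 4989 over those of E0771. Of the 32 genes, 4 were called, all higher in AT3: Ankrd37, Egln3, Ldha and Aldoa (of all genes 2.4% were higher and 2.15% lower). Ldha had 268, 1139 and 636 CPM against 211, 233 and 264 (1.53 ± 0.46, edgeR adjusted p = 0.0464; 0.96, 0.0458 with factors from genes above background), and Aldoa gave 1.52 ± 0.44 (0.0393; 0.98, 0.0307). Egln3 had 100, 829 and 311 CPM against 81.3, 131 and 108 (1.95 ± 0.46, 0.0109; 1.3, 0.0275), and the lowest AT3 library overlapped E0771. Ankrd37, near background, had 13.9, 57.3 and 34.4 against 3.01, 11.5 and 4.0 (2.43 ± 0.54, 0.00744; 1.92, 0.102). With the second factors Gapdh was also called higher and Ndrg1 lower (−1.19, 0.00389), against 0.663% and 1.93% of all genes. Macrophage markers summed to 2493 to 4161 CPM in AT3 and 922 to 961 in E0771 neutrophils, and neutrophil markers to 8595 to 28622 and 5329 to 8017; their part in the result was not tested. The count rested on single libraries: it was 20 higher without AT3 neutrophil 1, 2 without AT3 neutrophil 3 or E0771 neutrophil 2, and none of the 4 passed without AT3 neutrophil 2, E0771 neutrophil 1 or E0771 neutrophil 3.

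In macrophages from 2208L against T11 tumours 10 genes of several roles were called, and none of the 6 tested genes from Gapdh to Ldha was among them (median 0.28). Pfkfb3 had 361, 242 and 234 CPM in 2208L and 49.9, 89.4 and 84.7 in T11 (1.9 ± 0.27, edgeR adjusted p = 3.00e-06). Egln3 had 38.6, 58.2 and 46.1 against 11.3, 13.3 and 8.11 (2.1 ± 0.42, 0.000543), and P4ha2, near background, 26.8, 35.7 and 27.7 against 6.81, 9.66 and 5.41 (2.01 ± 0.50, 0.00441). Hk1 went the other way, with 29.2, 50.5 and 75 against 157, 137 and 124 (−1.45 ± 0.29, 0.000465), while Hk2 had 93.8, 68.3 and 77.3 against 26.5, 36.2 and 37 (1.26 ± 0.30, 0.00278). The 2 hexokinases thus changed in opposite directions with no overlap of the groups.

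In all, 9 of 32 genes were higher and 1 lower (of all genes 8.47% and 8.38%), with a median of 0.44 against 0.04 for all genes. The second factors gave 12 and 1 (all genes 11% and 5.66%), the 9 among them: Slc2a1, Slc16a3, Hk2, Pfkl, Pfkfb3, Egln3, Ndrg1, Ero1l and P4ha2. Slc16a3 had 121, 63.7 and 49.6 CPM against 27.2, 43.5 and 25.2 (1.28 ± 0.32, edgeR adjusted p = 0.00503), but 0.76 (0.11) without 2208L macrophage 1. The number higher fell to 5 without 2208L macrophage 1, T11 macrophage 1 or T11 macrophage 3. Slc2a1 had 386, 287 and 293 against 159, 222 and 178 (0.79 ± 0.25, 0.0257). Ldha had 1092, 777 and 777 against 599, 768 and 593 (0.43 ± 0.23, 0.201; 0.63, 0.0267 with the second factors) and Pgk1 308, 259 and 271 against 249, 386 and 287 (−0.14 ± 0.25, 0.751). Hif1a had 210, 176 and 161 against 154, 167 and 188 (0.11 ± 0.25, 0.813). Bnip3 gave 1.15 ± 0.47 (0.0907; 1.36, 0.0458 with the second factors) and Car9, at 12.7 to 19.7 against 4.23 to 15.9 CPM, 0.71 ± 0.56 (0.41). Beside these values, the neutrophil marker sum was 4029 to 11544 CPM in T11 macrophages and 346 to 506 in 2208L. In T11 it was nearly all Mmp9, at 9402, 11453 and 3925 CPM, with S100a8 at most 2.48 and S100a9 at most 5.05. Epithelial markers summed to 467 to 614 CPM in 2208L macrophages, and their part in the result was not tested.

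In macrophages from AT3 against E0771 tumours, 5 of the 9 genes of the early steps (Gpi1, Pfkl, Aldoa, Aldoc and Tpi1) and 4 of the 6 tested genes of the later ones (Gapdh, Pgk1, Pkm and Ldha) were higher in AT3. Of the 32 genes, 15 were higher and 2 lower (of all genes 9.39% and 9.27%), with a median of 0.68 against −0.04. The second factors gave 12 and 2 (all genes 4.88% and 12.4%), each also called with the first: Slc16a3, Gpi1, Pfkl, Aldoa, Tpi1, Pfkfb4, Gapdh, Pgk1, Pkm, Hif1a, Ankrd37 and P4ha1, and Ndrg1 and Adm lower. Tpi1 had 707, 632 and 454 CPM in AT3 and 130, 169 and 259 in E0771 (1.68 ± 0.26, edgeR adjusted p = 2.93e-05). Pgk1 had 340, 327 and 226 against 74.5, 140 and 135 (1.35 ± 0.26, 0.000517), and Aldoa 1268, 1331 and 991 against 403, 367 and 548 (1.44 ± 0.23, 5.67e-05). Pfkfb4 had 159, 229 and 149 against 42.4, 56.9 and 50.2 (1.85 ± 0.28, 2.58e-05), while Pfkfb3 had 213 and 159 (0.42 ± 0.26, 0.249). P4ha1 had 310, 210 and 287 against 66.5, 71.7 and 92.9 (1.79 ± 0.27, 2.72e-05).

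Ndrg1 and Adm opposed the others. Ndrg1 had 93.8, 123 and 75.8 CPM in AT3 macrophages against 288, 313 and 343 in E0771 (−1.69 ± 0.27, edgeR adjusted p = 4.06e-05). Adm had 0, 0 and 1.7 against 12.6, 17.3 and 14.8 (−4.44 ± 1.08, 0.00475), a sum of 2 counts against 43. Ankrd37 had 18.6, 16.6 and 27.2 against 2.29, 4.95 and 4.93 (2.32 ± 0.67, 0.0164), and its call was lost without AT3 macrophage 3 or E0771 macrophage 1. Hif1a had 265, 425 and 326 against 111, 193 and 209 (0.98 ± 0.25, 0.00728), Egln3 52.8, 88.7 and 69 against 10.3, 30.9 and 45.2 (1.26 ± 0.39, 0.0252), and Ldha 706, 682 and 624 against 322, 450 and 481 (0.68 ± 0.23, 0.0365). With the second factors Hif1a kept its call (0.0291), and Egln3 (0.0704) and Ldha (0.135) did not. Slc2a1 (0.58 ± 0.24, 0.0916), Hk2 (0.57 ± 0.29, 0.155), Bnip3 (0.74 ± 0.48, 0.282) and Car9 (0.32 ± 0.54, 0.704) were not called. The summed markers of other cell types moved with the pair: for AT3 against E0771 macrophages they were 24647 to 28351 against 6888 to 12109 CPM for macrophages, 745 to 1432 against 111 to 465 for monocytes, 19.3 to 29.1 against 167 to 535 for dendritic cells, 8.4 to 27.9 against 75.9 to 155 for T and NK cells, and 48.4 to 75.8 against 276 to 315 for endothelial cells. Their part in the result was not tested. With the first factors 19 of the 32 tested genes were highest in AT3 macrophages among the 4 tumours, and ranks over all genes were not counted. Of the 32 genes, 26 differed among tumours in neutrophils and 23 in macrophages, against 33.4% and 37.1% of all genes.

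**Figure D4:**
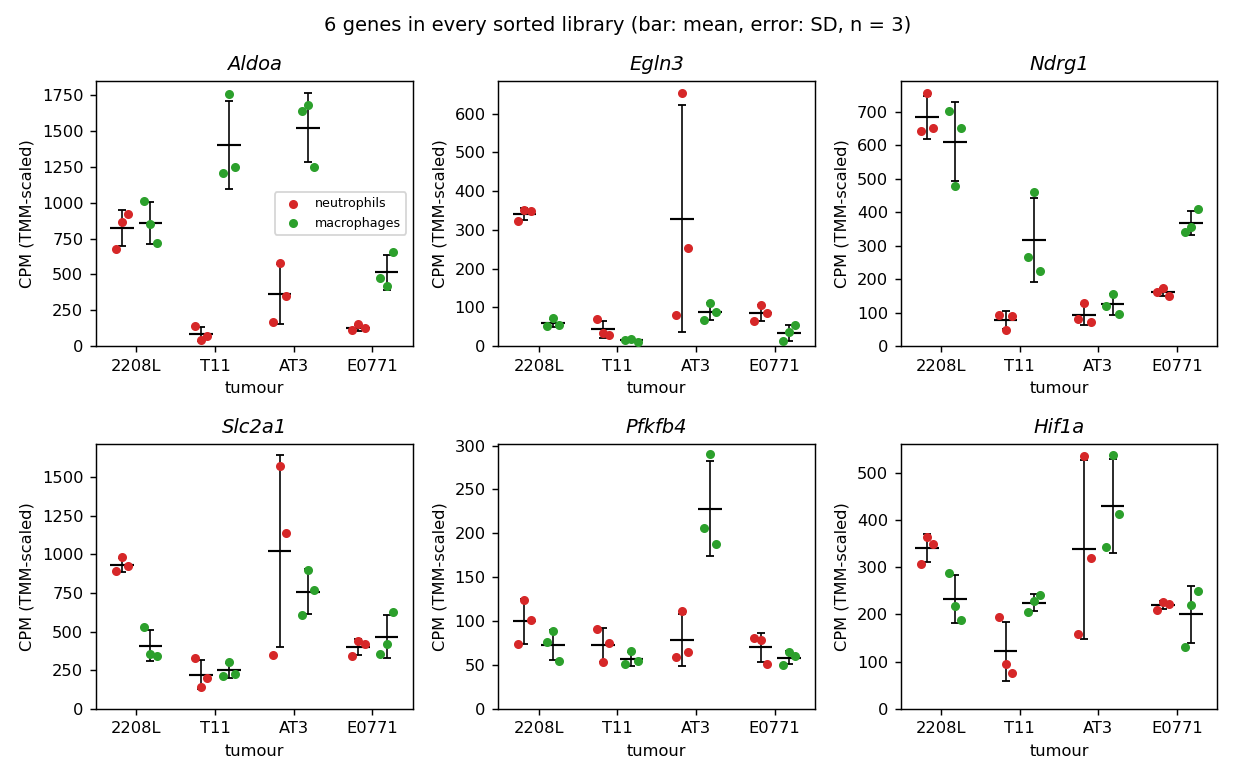
CPM of Aldoa, Egln3, Ndrg1, Slc2a1, Pfkfb4 and Hif1a in every sorted library, scaled over the 24 sorted libraries with factors from all tested genes; points are libraries (red neutrophils, green macrophages), bars the mean of 3 and error bars the SD, on linear axes from 0. The Aldoa means of the cell types are close in 2208L, at 860 CPM in macrophages and 822 in neutrophils, and far apart in the other tumours, Egln3 is higher in neutrophils in all 4, and Pfkfb4 is highest in AT3 macrophages.

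Set against neutrophils, macrophages had more transcript of several glycolytic enzymes and less of Egln3, Slc16a3 and some hypoxia-induced genes. This scale covers all 24 sorted libraries. Aldoa was higher in macrophages by 2.04 ± 0.19 log2 (edgeR adjusted p = 2.35e-13), Gpi1, glucose-6-phosphate isomerase, by 1.78 ± 0.19 (1.82e-11) and Tpi1 by 1.59 ± 0.19 (5.98e-10). Egln3 was lower by 1.81 ± 0.22 (5.06e-10), Ero1l by 1.02 ± 0.19 (5.26e-06) and Slc16a3 by 0.87 ± 0.18 (5.22e-05). Of the 32 genes 16 were higher and 6 lower, against 30.2% and 46.5% of all genes, and the median was 0.26 against −0.47 for all genes. The factors mattered greatly here: under the second set, 7 were higher and 20 lower, against 7.28% and 75.1% of all genes.

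By both sets of factors 7 genes were higher in macrophages on average, namely Gpi1, Aldoa, Aldoc, Tpi1, Gapdh, Pkm and Ldha. By both, 6 were lower, namely Slc16a3, Pfkfb3, Egln3, Ero1l, P4ha2 and Adm. Single tumours differed. Higher by both were Gpi1, Aldoa, Tpi1, Gapdh, Pgk1, Pkm and Ldha in T11. In AT3 they were Gpi1, Aldoa and Aldoc, in E0771 Gpi1 and Aldoa, and in 2208L none. Lower by both were Slc16a3, Pfkm, Pfkfb3, Egln3, P4ha2 and Adm in T11 and Eno2, Egln3 and Ero1l in AT3. In E0771 only Egln3 was, and in 2208L Slc2a1, Slc16a3, Hk2, Pfkp, Egln3 and Ero1l. Over the sorted libraries P4ha2 and Adm were near background, at 4.46 and 6.17 times the receptor genes. Those receptors summed to 7429 CPM in neutrophils and 2365 in macrophages, and the part of background in these 2 calls was not tested. Hk1, Pfkl, Pdk1 and P4ha1 were called in opposite directions by the 2 sets, so that no direction can be given for them. Aldoa became 1.02, Gpi1 0.75 and Tpi1 0.57 with the second factors, and Egln3 became −2.82, Ero1l −2.04 and Slc16a3 −1.9. Hif1a was 0.14 ± 0.16 (edgeR adjusted p = 0.444) with the first and −0.89 (5.83e-08) with the second. Slc2a1 went from −0.31 (0.112) to −1.33 (3.53e-11), Hk2 from −0.29 (0.0911) to −1.33 (3.09e-11) and Bnip3 from −0.41 (0.0926) to −1.42 (6.16e-07). Pgk1 went from 1.25 (4.72e-09) to 0.22 (0.0966), Ldha from 1.39 (1.08e-08) to 0.37 (0.0107) and Car9 from 0.65 (0.0278) to −0.42 (0.202).

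The difference between cell types depended on the tumour in the BALB/C pair. In 2208L, 6 genes were called between the cell types, each lower in macrophages (3.14% of all genes were lower), while in T11 16 were higher and 6 lower (all genes 29.2% and 39.6%). With the second factors 11 were lower in 2208L (all genes 7.29%), and in T11 the balance turned round to 7 higher and 18 lower (6.46% and 71.8%), with Pfkp and Hif1a called in opposite directions by the 2 sets. The test of the difference of differences called 1 gene higher and 17 lower (of all genes 10.7% and 16.6%), led by Aldoa at −3.98 ± 0.53 (edgeR adjusted p = 2.29e-07), Tpi1 at −3.07, Gpi1 at −2.96, Pkm at −2.87 and Aldoc at −2.73. Aldoa had similar means in the 2208L cell types, 860 CPM in macrophages and 822 in neutrophils, but 1405 and 84.7 in T11. With the second factors the same test called 8 higher and 10 lower (all genes 40.6% and 3.81%), and all 10 were among the 17: Hk1, Gpi1, Pfkp, Aldoa, Tpi1, Gapdh, Pgk1, Pkm, Ldha and Ndrg1. Aldoa was then −2.64 (3.18e-06). Between AT3 and E0771 only Pfkfb4 passed, at 1.81 (0.0162; 1.55, 0.0127 with the second factors; 0.656% and 0.388% of all genes were higher), with means of 228 CPM in AT3 macrophages and 58.3 to 78.5 in the other 3 groups of that pair.

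Ratios of paired genes within a library need no scaling factor. They were computed per kilobase of exon with 0.5 added to each count, and the cell types were compared by 100000 permutations of the labels within tumours, 2-sided, with adjustment over 8 ratios. The log2 ratio of Egln3 to Egln1 was 2.26 ± 1.09 in neutrophils (SD, n = 12) and −0.29 ± 1.01 in macrophages, a difference of −2.55 (permutation p = 2.00e-05, adjusted p = 0.00016) with the same direction in 4 of 4 tumours. In the tumour means it was 2.78 in 2208L, 3.28 in AT3, 1.72 in E0771 and 1.25 in T11 neutrophils, and 0.28, 0.60, −0.60 and −1.44 in the macrophages. Hk2 to Hk1 was lower in macrophages by 0.74 on average, with the same direction in 4 of 4 tumour means (permutation adjusted p = 0.0193). The libraries of the cell types overlapped in every tumour but T11, where the difference was largest. The means in macrophages and neutrophils were 1.23 and 1.4 in 2208L, 0.69 and 1.34 in AT3, 0.71 and 0.83 in E0771, and −1.55 and 0.46 in T11. The 2208L and T11 macrophages thus differed in which hexokinase transcript prevailed.

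Pfkp to Pfkl was lower in macrophages by 0.69 and Pfkfb4 to Pfkfb3 higher by 0.67, each in 3 of 4 tumours (permutation adjusted p = 0.0193 for both). P4ha2 to P4ha1 was lower by 1.12 in 3 of 4 (permutation adjusted p = 0.0245). Tumours differed, as the means of macrophages and then neutrophils show. Pfkp to Pfkl went the other way in T11 (−0.01 and −0.52), without overlap of libraries. Pfkfb4 to Pfkfb3 was furthest apart in AT3 (0.38 and −1.64). It was −1.63 and −1.86 in 2208L, −1.03 and −0.94 in E0771, and −0.12 and −0.65 in T11. P4ha2 to P4ha1 was furthest apart in T11 (−4.8 and −1.6) and went the other way in 2208L (−3.29 and −4.14), without overlap. Slc16a3 to Slc16a1 differed by −0.76 (0.0509 by the same permutation test) and Aldoc to Aldoa by −0.51 (0.204). Egln1, Hk1, Slc16a1, P4ha2 and Aldoc were near background in neutrophils, and the part of background in these ratios was not tested. Eno2 to Eno1 was not read because Eno1 has almost no counts. In lines the ratio of Slc16a3 to Slc16a1 was −1.37 in T11, −1.62 in E0771 and −1.8 in PyMT-M and −5.3 to −7.24 in the other 5, while in the sorted groups it ran from 0.33 to 3.22. Culture, sorting and extraction differ together between these kinds of library, so these values were not tested against each other.

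**Figure D5:**
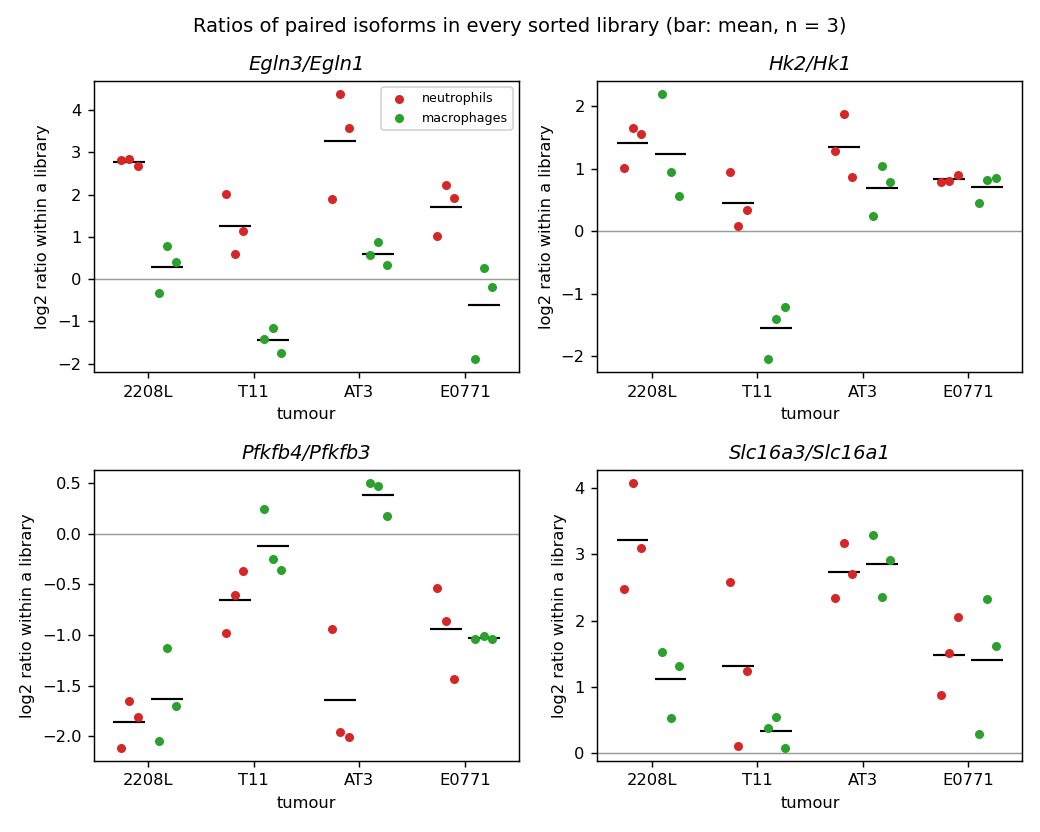
Log2 ratio of Egln3 to Egln1, Hk2 to Hk1, Pfkfb4 to Pfkfb3 and Slc16a3 to Slc16a1 per kilobase in every sorted library; points are libraries (red neutrophils, green macrophages), bars the mean of 3, and the grey line is a ratio of 1 (log2 of 0). Egln3 to Egln1 is higher in neutrophils in each tumour, and Hk2 to Hk1 is below 0 in T11 macrophages at −1.55 on average.

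Other genes of the pathways, from lists of related genes, gave the setting. Of 32 other HIF targets tested in lines, 13 were higher and 10 lower in PyMT-N against PyMT-M and 9 and 8 in 4T1 against 67NR. The counts were 9 and 10 in 2208L against T11 and 6 and 15 in AT3 against E0771. With the second factors they were 13 and 12, 11 and 6, 9 and 13, and 11 and 10. The shares of all genes in these pairs were 23.7% and 21.3%, 21.5% and 25.9%, 22.7% and 19%, and 18.9% and 27%. With the second factors the shares were 22.4% and 24.6%, 31.3% and 19.9%, 20.7% and 23.1%, and 32.4% and 18.2%. Among the HIF targets Pdgfb, a growth factor, was higher by 6.65 ± 0.21 in the PyMT pair (edgeR adjusted p = 1.75e-46). It was also higher by 5.07 ± 0.18 in 4T1 against 67NR (2.01e-43) and by 3.48 ± 0.25 in 2208L against T11 (5.04e-22). Bhlhe40, a repressor, was higher by 2.69 in 4T1 (1.36e-30) and 3.63 in 2208L (5.19e-37), and lower by 2.88 in AT3 (2.50e-34). Ldhb, the lactate dehydrogenase subunit of oxidative tissue, was higher in PyMT-N by 3.86 ± 0.26 (9.48e-24) and in 4T1 by 1.49 (0.000129). Slc2a3, the high-affinity glucose transporter GLUT3, was lower in PyMT-N by 2.61 (5.40e-21), in 2208L by 2.98 (8.29e-21) and in AT3 by 1.62 (4.66e-16). Eno3, the muscle enolase, was lower in 2208L than T11 by 5.44 (3.73e-49).

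In 2208L against T11 neutrophils 19 of 31 other HIF targets were higher and 2 lower (of all genes 19.5% and 15.1%). With the second factors 6 were higher and 10 lower (of all genes 2.43% and 69.4%). The 6 were Bhlhe40, Gys1, Hilpda, Fam162a, Mif and Hmox1. Mif, a cytokine, was higher by 3.21 ± 0.41 (edgeR adjusted p = 7.45e-07) and by 1.81 (0.000307) with the second factors. In 2208L against T11 macrophages 5 of 11 genes of pyruvate entry were called, each lower by both sets of factors. Of all genes 8.38% were lower there, and 5.66% with the second factors. The 5 were Pdhb (−2.33 ± 0.29, edgeR adjusted p = 3.93e-07), Mpc2 (−1.79), Dlat (−1.79), Pdha1 (−1.77) and Dld (−1.49). They encode subunits of the mitochondrial pyruvate carrier and of pyruvate dehydrogenase. In AT3 against E0771 macrophages 4 of 7 genes of the pentose phosphate pathway were called, each higher. Of these Pgd (1.92 ± 0.26, edgeR adjusted p = 4.49e-06), Tkt (1.19) and Taldo1 (1.17) were higher by both sets. Of all genes in that comparison 9.39% were higher and 9.27% lower, and 4.88% and 12.4% with the second factors. Among 28 other HIF targets there, 8 were higher and 3 lower, and Vegfa (1.69 ± 0.31, 0.000256), Hilpda, Plod1 and Pdgfb were higher by both sets. Between the cell types Slc2a3 was lower in macrophages by 3.0 ± 0.24 (3.32e-15), or by 3.98 with the second factors, and Tkt (2.1), Pgd (1.68) and G6pdx (1.56) were higher by both.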

How the data were processed

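Gene counts for 48 libraries were used as the authors deposited them, in a table of raw counts. Per the submitters' processing notes, reads were made with bcl2fastq 2.17 and aligned with STAR 2.4.2a to mm10, and the counting program, annotation and use of strand are not given in the sources used here. Per the labels' protocols, sorted cells were collected in TRIzol LS. The columns named PyMTE match no line by name and were assigned to PyMT-N, the only line with no column of its own, and 0 columns of per-sample values were left unmapped.

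Rn45s was removed and TMM factors were computed after filterByExpr by group (minimum count 10, total 15). The quasi-likelihood test of edgeR 4.0.16 (R 4.3.3, limma 3.58.1) was fitted to the 24 line, 12 neutrophil, 12 macrophage and 24 sorted libraries separately, with Benjamini-Hochberg adjustment over all genes tested. The SE is the log2 difference over the square root of F. Alternatives were other size factors, no count filter, Rn45s kept, a replicate block, DESeq2 1.42.0, the compared groups alone and leaving out each library. Factors from genes at least 10 times above the receptor genes per base were added after the data were seen, as was a block for the number that macrophage and neutrophil libraries of a tumour share. The fits were tested on simulated data. Ratios, promoters and copies were computed with Python 3.11.15, pandas 2.3.3, numpy 2.4.6, scipy 1.17.1 and blastn 2.17.0.

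Genes and lists were chosen with earlier results of these data known. Named were 8 core genes in each set, up to 5 called genes per comparison with the largest differences and no overlap of libraries, and up to 4 called genes of each other list. A gene named outside this rule was chosen after its values were seen. Counts of 0 and low counts limit precision for genes near background. Residuals of libraries with the same replicate number had median correlations of −0.008 in lines, −0.006 in neutrophils, −0.015 in macrophages and −0.001 over the sorted libraries. These values do not show pairing by replicate number, and with few libraries per group they cannot exclude it. Within a tumour, the 12 macrophage and neutrophil libraries with a number in common had residual correlations of −0.126 to 0.185 (median −0.014), 2 of them above 0.1.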

Additional observations from a re-analysis of the deposited data

Results flagged for a closer look

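The difference between macrophages and neutrophils was tested for a change between tumours with an interaction term in the edgeR fit of the 24 sorted libraries. All 32 genes were tested, and those given here are the called ones among the genes that the naming rule takes. Between 2208L and T11 tumours, 9 of them, of 17 called lower in all, had a smaller difference of macrophages minus neutrophils in 2208L. In the enzymes of the early steps the changes were −3.98 for Aldoa (edgeR adjusted p = 2.29e-07), −3.07 for Tpi1 (2.92e-05), −2.96 for Gpi1 (3.77e-05) and −2.73 for Aldoc (0.000202). In the later steps they were −2.87 for Pkm (6.14e-05), −2.62 for Pgk1 (2.85e-05) and −2.55 for Ldha (0.000287). Hif1a changed by −1.44 (0.0185) and Slc2a1 by −1.35 (0.0414). With factors from the genes above background, Aldoa, Tpi1, Gpi1, Pkm, Pgk1 and Ldha were still called lower, and Aldoc, Hif1a and Slc2a1 were not. Between AT3 and E0771 tumours Pfkfb4 had a difference that was larger in AT3 by 1.81 (0.0162).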

How the results depend on the processing

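Over the planned and added alternatives, 188 of the counts and ratios kept their size, 22 moved and 1 passed the threshold, and with libraries left out in turn 406 kept it, 20 moved and 6 passed the threshold. Of the values of single genes, 928 kept direction and call, 35 lost the call, 29 gained it and 29 changed sign, and with libraries left out 942, 53, 13 and 12. Factors from genes above background gave 14 higher and 6 lower in 2208L against T11 neutrophils, 1 lower in AT3 against E0771 neutrophils, 7 higher and 20 lower in macrophages against neutrophils, and 8 higher and 10 lower in the change of that difference between 2208L and T11. Those factors and factors from abundant genes each gave 8 higher in the AT3 against E0771 lines. Macrophages against neutrophils gave 11 lower with relative log expression factors, 12 with abundant genes and 11 with DESeq2. In AT3 against E0771 neutrophils DESeq2 gave 9 higher and a fit of the 2 groups alone 2. DESeq2 and the fit with no count filter gave 0 lower in 2208L against T11 neutrophils in place of Pfkm (1 with edgeR), and DESeq2 gave 2 lower in the macrophages of that pair. The ratio of Slc16a3 to Slc16a1 was −0.75 with 1 added to each count (permutation adjusted p = 0.0497). The cause of these changes was not tested.

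Signs changed for some values near 0 and, with above-background factors, also for larger ones. In lines Pgk1 was 0.02 and 0.03 and Hif1a 0.01 and 0.02 in 4T1 against 67NR, and Pgk1 −0.02 and −0.01 in 2208L against T11, with abundant and above-background factors. Pgk1 was 0.04 and 0.07 in 2208L against T11 macrophages with these. Above-background factors made Bnip3 −0.18 in 2208L against T11 neutrophils and Car9 −0.42 in macrophages against neutrophils. Hif1a there was −0.13 with relative log expression factors, −0.19 with abundant genes, −0.89 with genes above background and −0.13 with DESeq2. In the change between 2208L and T11, Bnip3 was 0.21, 0.27, 1.22 and 0.21 under the same 4, and Hk2 0.51 and Egln3 0.44 with genes above background.

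With each library left out in turn, the number higher ran from 0 to 20 in AT3 against E0771 neutrophils (lower 0 to 2), 22 to 25 in 2208L against T11 neutrophils (lower 0 to 1), 5 to 8 in 2208L against T11 macrophages (lower 1 to 2), and 0 to 2 in the change between AT3 and E0771. The ratio of Aldoc to Aldoa ran from −0.76 to −0.33 and that of Slc16a3 to Slc16a1 from −0.91 to −0.6. Signs also changed there: in 2208L against T11 macrophages Pgk1 ran from −0.31 to 0.03 and Hif1a from −0.06 to 0.16, and in AT3 against E0771 macrophages Car9 from −0.01 to 1.04. In the change between AT3 and E0771, Hk2 ran from −0.46 to 0.56, Bnip3 from −0.55 to 0.72 and Egln3 from −1.07 to 0.43.

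By replicate number, 10 of 24 line libraries, 3 of 12 neutrophil, 1 of 12 macrophage and 10 of 24 sorted libraries correlated best with their own number. This neither shows nor excludes that the numbers pair samples. With the replicate block, AT3 against E0771 neutrophils had 2 genes higher in place of 4, Bnip3 became 0.01 in the change between AT3 and E0771, and no other count moved by over 1.5 times. Within a tumour, 5 of 12 macrophage libraries correlated best with the neutrophil library of their number. A replicate block within each tumour gave 16 higher and 6 lower in macrophages against neutrophils, 1 higher and 16 lower in its change between 2208L and T11, and 1 higher in that between AT3 and E0771, where Hk2 became 0.1 and Bnip3 0.25. With above-background factors this block gave 7 higher and 20 lower, with Hif1a at −0.88 and Car9 at −0.41, then 7 higher and 10 lower, with Hk2 at 0.51, Bnip3 at 1.21 and Egln3 at 0.4, and Bnip3 at 0.02 between AT3 and E0771. In neutrophils 12 of the 33 genes lay near background, and the part of depth in this was not tested.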

Other observations

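Eno1b, a near-identical copy of Eno1 that has its own line in the table, followed the labelled strain of the cultured lines. It had 295 to 631 counts in the 12 BALB/C line libraries (90.1 to 221 CPM) and 5 to 21 counts in the 12 C57BL/6 line libraries (1.64 to 5.72 CPM). Gapdh, with 77 near-identical copies, went the other way, at 236 to 664 CPM in BALB/C and 776 to 1943 CPM in C57BL/6 line libraries. E0771 macrophage 1 and E0771 neutrophil 1, labelled BALB/C, had 5 and 3 counts of Eno1b. Other BALB/C macrophages had 156, 110 and 81 counts in 2208L and 146, 278 and 123 in T11. Other BALB/C neutrophils had 106, 152 and 65 in 2208L but 31, 7 and 8 in T11. C57BL/6 neutrophil libraries had 4 to 11 counts, so low counts in neutrophils do not tell the labelled strains apart.

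Among lines, Loxl2, a collagen crosslinking enzyme, was lower in PyMT-N than in PyMT-M by 4.33 log2, and Car12, a carbonic anhydrase, was higher in 4T1 than in 67NR by 3.24 (edgeR, adjusted p below 0.05 for both). In AT3 against E0771 macrophages Loxl2 was lower by 3.42 and Angptl4, a lipase inhibitor, by 2.27, also called.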
